A study of Mus musculus with 16 samples.

Results

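Cell-cycle entry genes were examined at the level of open chromatin in mouse hematopoietic stem and progenitor cells (HSPCs). The 10 genes were 6 inhibitors of cyclin-dependent kinases (Cdkn1a, Cdkn1b, Cdkn1c, Cdkn2a, Cdkn2b and Cdkn2c) and 4 genes that drive G1 (Ccnd1, Ccnd2, Ccnd3 and Cdk6), out of 21938 protein-coding genes. They were chosen by their names and roles and not by a measured value, though with earlier results of these data known. ATAC-seq, in which the Tn5 transposase cuts accessible DNA, gave one list of peaks per library. Peaks of all 16 lists that shared at least 1 bp were merged into 296215 regions, and a gene was given every region that touched its body or the 20 kb on either side. This gave 251 regions for the 10 genes, 69 at the inhibitors and 182 at the G1 cyclins and Cdk6. Of these, 52 had a peak in all 16 libraries, out of 39310 such shared regions genome-wide.

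There were 4 genotypes and 4 libraries of each, with cells sorted from the bone marrow of 2 age-matched mice in every library. WT mice were Ep300 fl/fl. P300KO mice were Mx1-Cre;Ep300 fl/fl, TET2KO mice were Ep300 fl/fl;Tet2-/-, and P300KO_TET2KO mice, called the double knockout here, were Mx1-Cre;Ep300 fl/fl;Tet2-/-. All were C57BL/6 mice of both sexes that carried the floxed Ep300 allele and received 3 doses of poly(I:C) from 6 to 8 weeks of age; the study's methods give a default interval between the injections and its experiments, with exceptions, and do not say which interval held for the ATAC-seq cells. Mx1-Cre is driven by an interferon-inducible promoter and was present only where Ep300 was deleted, so Cre and the loss of p300 cannot be told apart. Cells were frozen after the sort and 50000 were used per library.

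In the textbook view, mitogens raise the D-type cyclins, which bind Cdk4 or Cdk6 and phosphorylate the retinoblastoma protein, releasing E2F factors that start DNA synthesis. The Ink4 inhibitors (Cdkn2a, Cdkn2b and Cdkn2c among them) block Cdk4 and Cdk6 directly, whereas the Cip/Kip inhibitors (Cdkn1a, Cdkn1b and Cdkn1c) act on a wider range of cyclin-kinase complexes. In blood, several of these inhibitors are known for holding stem cells in quiescence, and Cdk6 for their exit from it. p300 is a histone acetyltransferase and coactivator found at enhancers, and Tet2 oxidizes methylated cytosine in DNA.

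The stretches below are shown because the results turn on them. Where an order of evidence is named, it is by adjusted limma p in the average over both Tet2 backgrounds. Each of the first 5 is the 200 bp around the strongest summit of a region, on the plus strand of mm10, 5' to 3'. The last is the 250 bp before an upstream RefSeq start of Cdkn1a on mm10, also on the plus strand. Capitals mark short strings found on either strand that resemble the consensus of a factor; the strings are spelled out further on.
Ccnd3 intron, the one member region past the rank threshold in the fit with genotype and set, chr17:47542123-47542322, with Runx and Myb strings: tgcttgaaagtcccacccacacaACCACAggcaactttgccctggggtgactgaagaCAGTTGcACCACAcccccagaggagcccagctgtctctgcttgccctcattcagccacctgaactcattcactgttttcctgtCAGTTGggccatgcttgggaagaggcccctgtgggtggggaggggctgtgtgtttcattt
Ccnd2 upstream region, next in order of evidence, chr6:127155034-127155233, with Runx and E2f strings: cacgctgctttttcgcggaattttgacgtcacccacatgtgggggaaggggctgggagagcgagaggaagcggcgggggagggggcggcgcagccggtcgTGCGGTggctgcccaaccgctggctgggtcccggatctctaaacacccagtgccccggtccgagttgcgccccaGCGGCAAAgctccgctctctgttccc
Ccnd1 upstream region, the other shared region with an E2f string, chr7:144941555-144941754: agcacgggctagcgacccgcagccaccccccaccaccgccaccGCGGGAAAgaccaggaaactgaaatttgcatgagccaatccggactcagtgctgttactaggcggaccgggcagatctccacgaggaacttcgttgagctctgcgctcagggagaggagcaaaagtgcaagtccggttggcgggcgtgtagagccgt
Ccnd3 strongest distal region, in the gene's intron, chr17:47521635-47521834, with Runx, Myb and Gata strings: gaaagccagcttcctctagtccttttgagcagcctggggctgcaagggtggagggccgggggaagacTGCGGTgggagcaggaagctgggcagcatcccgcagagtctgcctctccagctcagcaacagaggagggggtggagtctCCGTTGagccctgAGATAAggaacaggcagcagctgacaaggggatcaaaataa
Cdk6 strongest distal region, in an intron, chr5:3502673-3502872, with Ets, Ap1 and Myb strings: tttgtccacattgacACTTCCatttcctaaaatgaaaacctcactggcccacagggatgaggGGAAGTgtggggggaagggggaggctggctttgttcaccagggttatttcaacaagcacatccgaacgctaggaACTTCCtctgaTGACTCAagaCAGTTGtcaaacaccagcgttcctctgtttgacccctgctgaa
Cdkn1a upstream promoter without a peak in any library, chr17:29090729-29090978, with a paired p53 element: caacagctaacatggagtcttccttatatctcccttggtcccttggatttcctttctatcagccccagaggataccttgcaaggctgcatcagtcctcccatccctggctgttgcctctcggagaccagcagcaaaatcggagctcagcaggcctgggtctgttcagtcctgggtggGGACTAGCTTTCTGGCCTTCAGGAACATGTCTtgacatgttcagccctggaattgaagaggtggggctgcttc

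The libraries fell into 2 sets of 8. The submitters' description of replicates 1 and 2 points to a combined peak file per genotype, and these lists had 86039 to 110055 peaks, whereas replicates 3 and 4 had 130610 to 137335. What the sets stand for is not given in the sources used here, so set was a term in the limma fits. The study's methods state only a minimum number of reads per sample, the depth of each library is unknown here, and the 10 genes together had 83 to 110 regions with a peak per library in the first set and 113 to 130 in the second. Of 10 HSPC marker genes (such as Kit, Flt3 and Meis1), 9 had a peak over a transcription start in all 16 libraries, and Slamf1 had one in 15. The starts of Ms4a1, Cd3e, Ly6g and Klf1 had a peak in none, whereas all 3 megakaryocyte markers, and Pax5, Ltf and Epor, had one in all 16. The starts of Ep300 and Tet2 had a peak in all 16 libraries, which does not check either deletion. In such bulk libraries, fewer cells with an open site and less opening per cell cannot be told apart.

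Peak strength was read as a rank percentile, the position of a region's strongest peak among all peaks of its own list by the peak caller's -log10 p, with 100 the strongest. Levels below are such percentiles, and differences are in percentile points. Counts of regions per gene and percentiles of shared regions were each fitted in limma over all genes or all shared regions, with Benjamini-Hochberg adjustment over the whole table and a threshold of 0.05.

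Cdkn1a, which encodes p21, the inhibitor that p53 induces, had 14 regions, 8 of them in all 16 libraries. The region over its main start (chr17:29093424-29094506) ranked at 91.5, 90.6, 89.0 and 90.9 in the WT libraries and at 88.5, 83.4, 86.8 and 85.9 in P300KO. It ranked at 87.0, 86.7, 91.0 and 89.2 in TET2KO and at 86.9, 87.7, 84.7 and 83.8 in the double knockout. The WT and P300KO libraries did not overlap, and the TET2KO and double knockout libraries did. The difference between libraries without and with p300, averaged over both Tet2 backgrounds, was -3.54 points (SE 1.0; adjusted p = 0.118 in limma), which did not pass. The region just downstream, within the gene (chr17:29094615-29095926), was the strongest at Cdkn1a, at 97.3 to 98.3 in WT and 95.1 to 97.6 in P300KO (difference -1.91, SE 0.43; adjusted p = 0.107 in limma). In the double knockout it was at 97.3 to 97.9, and the difference of differences was 2.67 points (SE 0.61; adjusted p = 0.931). The strongest distal region, 11904 bp upstream of the gene's first base, went the other way, from a mean of 76.9 ± 5.0 (SD, n = 4) in WT to 85.0 ± 4.2 in P300KO (adjusted p = 0.143 in limma). These regions were singled out for an unadjusted limma p under 0.01 after their values were seen. So were the Ccnd2, Ccnd3 and Cdk6 regions described further on. A pick by p favors regions whose genotypes do not overlap. The share of all shared regions without overlap was not counted. The upstream RefSeq promoter printed above had no peak in any of the 16 libraries. A paired p53 element, a tandem of consensus repeats, was found in 24 of 32851 RefSeq promoters (0.0731%) and in the 200 bp around the summit of none of the 251 member regions, beside 0.0571% of all regions.

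Cdkn1b, which encodes p27, had the simplest landscape, with 2 to 4 regions per library and 2 regions in all 16. Its start region ranked at 94.7 to 97.8 over all libraries, and its genotype means lay between 96.4 and 97.1. A region 8283 bp downstream of the start was almost as strong, at 92.5 to 96.5. Over the 6 contrasts and both regions, the smallest adjusted p was 0.554.

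Cdkn1c, which encodes p57 and is an imprinted gene tied to stem cell quiescence, had the densest window for its size. It had 2.46 regions per 10 kb of window, at or above 99.0% of the genes tested, and 22 regions in all, of which 4 were in all 16 libraries. The window also takes in the neighbor Slc22a18. Its start ranked at 81.7 to 92.8, with genotype means of 87.9 to 89.6. The strongest distal region, 5440 bp upstream, ranked at 76.2 to 88.2. A weak region 2429 bp upstream had a peak in 3 of 4 P300KO libraries, in 1 of the double knockout and in none of the other 8. It was picked after its values were seen, for a peak in at least 3 of 4 libraries of one genotype and at most 1 of 4 of another, which 1.34% of all regions met for P300KO against WT and 1.69% for the double knockout against P300KO.

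Cdkn2a yields p16Ink4a and p19Arf from separate first exons, and the region over each start was in all 16 libraries. The p19Arf start (chr4:89294256-89295800) ranked at 76.5 to 86.0 over the 16 libraries. The p16Ink4a start (chr4:89281964-89282593) was weaker and more scattered, at 27.3, 61.9, 52.1 and 40.4 in WT and at 59.0, 25.8, 53.1 and 49.3 in P300KO. In TET2KO it was at 45.2, 59.6, 65.2 and 56.1, and in the double knockout at 53.4, 54.4, 58.7 and 43.8. All 4 genotypes overlapped there. The strongest distal region of Cdkn2a, 22089 bp downstream of the p19Arf start, had a peak in 15 libraries, at 31.1 to 67.2.

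Cdkn2b encodes p15Ink4b and lies next to Cdkn2a, so that their windows overlap. Its start region was in all 16 libraries at 77.2 to 88.2, with the P300KO mean at 86.8 ± 1.7 and the WT mean at 84.2 ± 1.1 (SD, n = 4 each). The count of its regions was the lowest-p value among the 10 genes. WT libraries had 4, 4, 4 and 5 regions and P300KO libraries 2, 2, 4 and 4. TET2KO libraries had 3, 5, 5 and 4, and the double knockout had 2, 3, 4 and 3. Within the first set P300KO had 2 and 2 against 4 and 4 in WT, whereas within the second it had 4 and 4 against 4 and 5. The log2(count + 1) difference without against with p300 was -0.42 (SE 0.12; unadjusted p = 0.00306, adjusted p = 0.352 in limma), which did not pass. Two-sided exact permutation of the counts within sets gave p = 0.167 for P300KO against WT and p = 0.222 for the double knockout against TET2KO, where the smallest possible value is 0.0556. With set ignored, the exact p was 0.286 and 0.200, where the smallest possible value is 0.0286. The regions that came and went were weak ones: a region over an exon of Cdkn2b had a peak in 10 libraries at 24.9 to 48.8.

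Cdkn2c, which encodes p18Ink4c, had 7 regions and 3 to 5 per library. Its start region (chr4:109665153-109667291) was among the strongest of all members at 95.4 to 98.1, and a region 9844 bp downstream of the gene's start ranked at 79.4 to 92.0. The genotype means of the start region lay between 96.8 and 97.7.

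**Figure D1:**
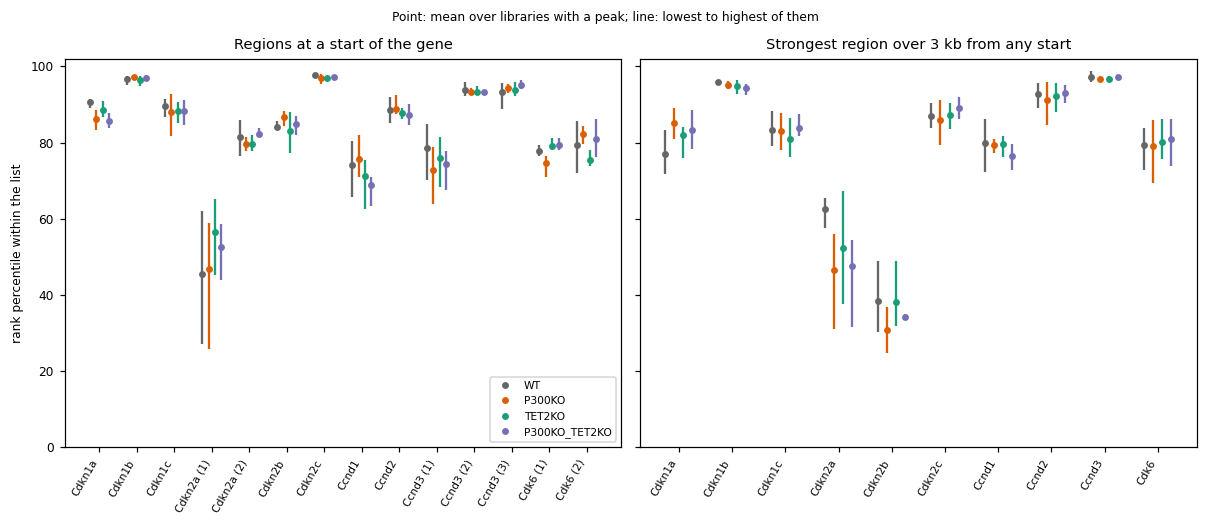
Rank percentile within the list (y axis, 0 to 100) of the regions over each member's starts and of its strongest region over 3 kb from any start, by genotype. Points are means over the libraries with a peak and lines run from the lowest to the highest library. Most start regions lie above 70, the p16Ink4a start, marked Cdkn2a (1), ranges from 25.8 to 65.2, and the genotypes overlap at most members.

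Among the G1 drivers, Ccnd1, whose product cyclin D1 is the D cyclin most studied in epithelial tumors, had the weakest start region of the D cyclins, with a mean of 72.5 over the 16 libraries. It ranked at 65.7, 75.1, 80.4 and 75.6 in WT, at 72.2, 70.9, 78.0 and 82.0 in P300KO, at 73.4, 62.6, 75.4 and 73.2 in TET2KO and at 70.8, 63.2, 69.9 and 71.0 in the double knockout. The 4 genotypes overlapped. A region inside the gene, 2256 bp from the start, was stronger, with a mean of 88.3. The upstream region with the E2f string printed above lay 1729 bp from the start and had a mean of 82.3. Its strongest distal region, 3558 bp upstream, ranked at 72.1 to 86.1. A weak region 1553 bp inside the gene had a peak in 4 of 4 TET2KO and 4 of 4 double knockout libraries, 2 of 4 in WT and 1 of 4 in P300KO. It was picked by the same rule of presence, which 1.69% of all regions met for the double knockout against P300KO.

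Ccnd2, which encodes cyclin D2, a D cyclin prominent in blood progenitors, had 20 regions with 8 to 13 per library. Its start region (chr6:127150901-127152829) ranked at 84.6 to 92.6 and its strongest distal region, 10850 bp upstream, at 84.6 to 95.9. The region 2940 bp upstream (chr6:127154535-127155261), printed above with its E2f and Runx strings, differed more. It ranked at 75.5, 81.5, 78.4 and 78.8 in WT and at 68.7, 53.05, 67.6 and 60.6 in P300KO, and these libraries did not overlap. In TET2KO it ranked at 74.4, 77.7, 78.8 and 77.5 and in the double knockout at 75.4, 65.8, 74.2 and 68.4, which overlapped. The difference without against with p300 was -11.1 points (SE 2.59; adjusted p = 0.0568 in limma), just short of the threshold. It passed under 5 alternatives, with adjusted p from 0.0101 to 0.0422, and when WT replicate 1 or P300KO replicate 1 was left out (0.0313 and 0.0367). Over all 25 alternatives fitted for it, the adjusted p ran from 0.0101 to 0.775.

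Ccnd3, which encodes cyclin D3, had 43 regions over a window of 134.64 kb, with 14 to 25 per library and 12 in all 16. The window also takes in starts of Taf8 and Bysl. Its start regions differed in strength: the long-transcript start ranked at 63.9 to 85.0, whereas the internal starts at 88443 bp and 90597 bp ranked at 92.2 to 95.8 and 88.8 to 96.4. The strongest distal region of all members lay in its intron, 16684 bp from the start (chr17:47521359-47522259), at 95.8 to 98.6 in the 16 libraries.

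One member region passed the threshold, and it also lay in a Ccnd3 intron, 37172 bp from the start (chr17:47541812-47543710, 1899 bp wide). It ranked at 81.2, 90.1, 91.5 and 90.2 in WT and at 71.8, 71.1, 80.1 and 75.9 in P300KO. In TET2KO it was at 70.2, 84.0, 88.1 and 87.4, and in the double knockout at 65.3, 64.7, 76.8 and 78.1. Every P300KO library was below every WT library, and all 4 double knockout libraries were below 3 of the 4 TET2KO libraries. It fell by 12.4 points without p300 averaged over both Tet2 backgrounds (SE 2.07; adjusted p = 0.0107 in limma). Taken one background at a time, the differences were -13.5 points (SE 2.93; adjusted p = 0.0943) for P300KO against WT and -11.2 points (SE 2.93; adjusted p = 0.353) for the double knockout against TET2KO, and neither passed. In the first set the means were 85.7, 71.4, 77.1 and 65.0 for WT, P300KO, TET2KO and the double knockout, and in the second set they were 90.9, 78.0, 87.7 and 77.5. The call was kept when any 1 of the 16 libraries was left out (adjusted p from 0.00475 to 0.0339). It was lost without the set term (adjusted p = 0.377) and in the first set alone (0.775), with the size at -12.4 and -13.1 points. The shared intronic region 26709 bp from the start had a mean of 62.8, and the other shared regions of the intron had means of 77.4 or above.

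**Figure D2:**
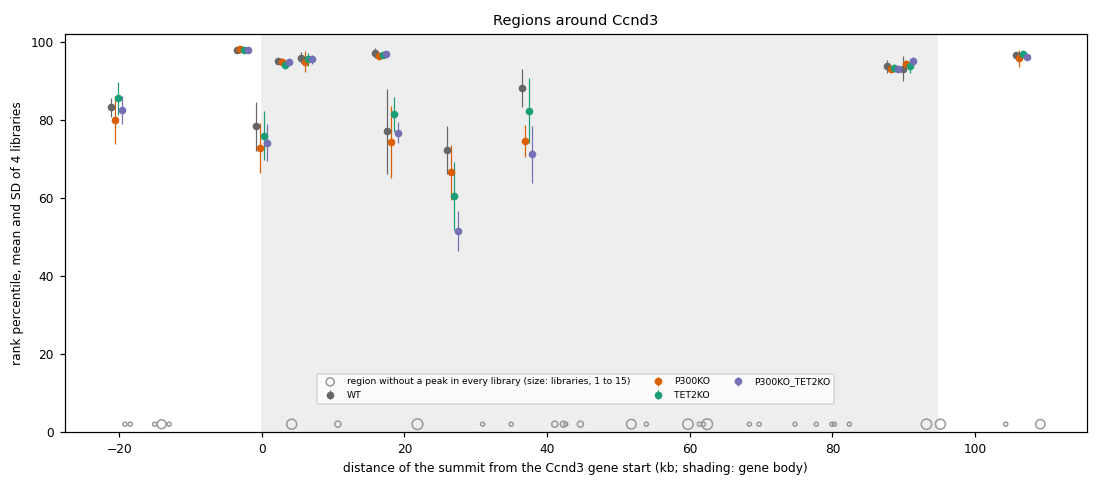
Rank percentile (y axis; mean and SD of 4 libraries per genotype) of the 12 shared regions around Ccnd3 against the distance of their summit from the gene start in kb (x axis); open circles at the bottom mark regions without a peak in every library. The region at 37172 bp shows P300KO and the double knockout below WT and TET2KO, and the strongest regions lie together near the top for all genotypes.

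Cdk6, which encodes the kinase that partners the D cyclins in blood cells, had the most regions, 99 over 229.52 kb, of which 91 were over 3 kb from any start and 39 were in a single library. Libraries had 22 to 46 of them, and the first set averaged 29.8 against 41.2 in the second. Among the strongest 50000 peaks of each list it had 8 to 13. Its start was covered by a pair of regions at 71.0 to 81.2 and 71.9 to 86.2, and the strongest distal region, printed above, lay 161288 bp into the gene at 69.4 to 86.2. A weaker intronic region 156366 bp from the start ranked at 56.2, 77.4, 64.9 and 63.8 in WT and at 52.1, 0.488, 43.2 and 48.8 in P300KO. It was at 65.9, 75.0, 63.7 and 57.6 in TET2KO and at 46.6, 52.1, 63.2 and 56.2 in the double knockout. P300KO was below WT in every library, and 1 P300KO library had it at the foot of its list. The difference without against with p300 was -20.2 points (SE 6.25; adjusted p = 0.159 in limma), which did not pass, and it was -14.1 points without P300KO replicate 2.

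**Figure D3:**
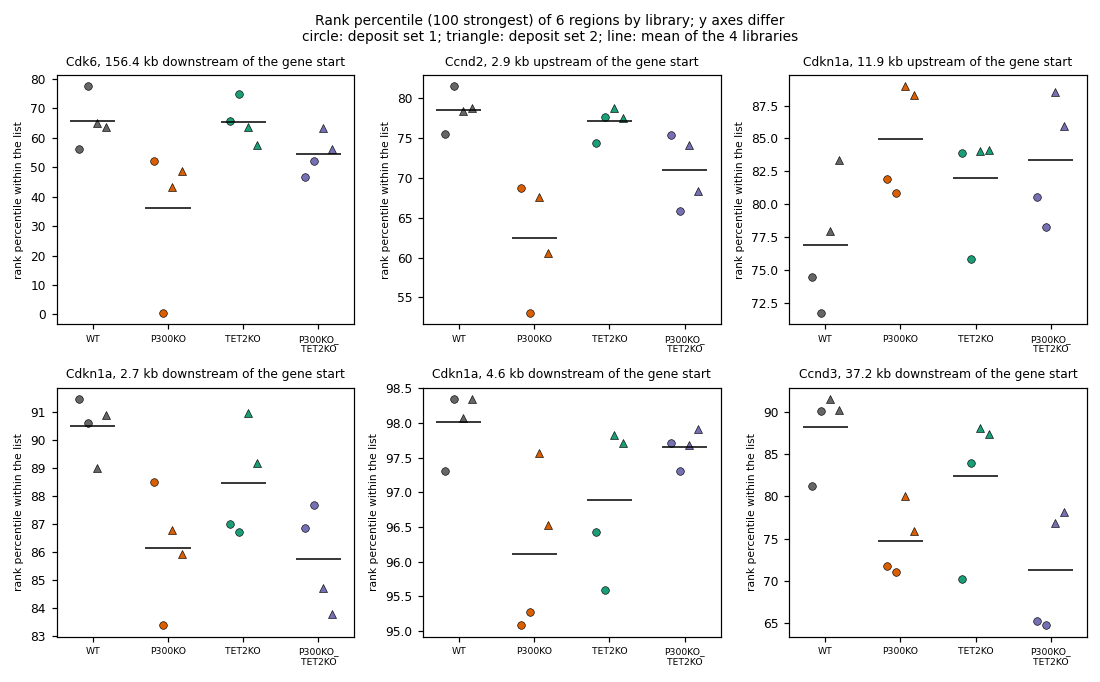
Rank percentile within the list (y axes, which differ and do not start at 0) of 6 regions in each of the 16 libraries by genotype, with the mean of 4 libraries as a line and the 2 sets as circles and triangles. The Ccnd3 region runs from 71.1 to 80.1 in P300KO against 81.2 to 91.5 in WT. The Cdkn1a region 11904 bp upstream has a higher mean in P300KO than in WT, the other 5 a lower one.

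The count of regions per gene did not pass in any contrast for any of the 10 genes. The percentage of all 17218 genes called was 0% for the double knockout against TET2KO, for P300KO against WT, for TET2KO against WT and for the interaction. It was 0.0232% for the double knockout against P300KO and 0.00581% for the average over both backgrounds. At an unadjusted limma p under 0.05 there was 1 of the 10 genes, Cdkn2b, in the double knockout against TET2KO, in P300KO against WT and in the average, beside 6.62%, 8.53% and 9.23% of all genes. There were 0 of 10 in the other contrasts, beside 8.82% for TET2KO against WT, 5.99% for the double knockout against P300KO and 5.12% for the interaction. In the main contrast, the double knockout against TET2KO, the median log2(count + 1) difference was -0.02 over the 10 genes and 0.03 over all genes.

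**Figure D4:**
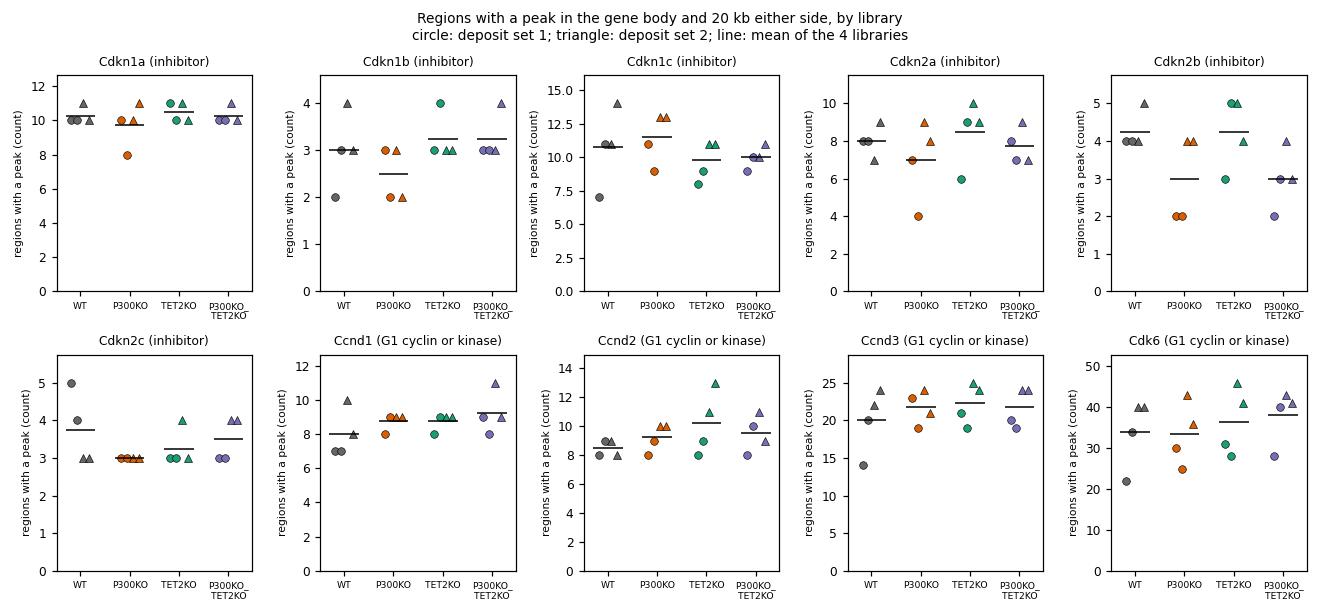
Number of regions with a peak (y axis, from 0) in the body of each of the 10 genes and 20 kb on either side, in each library by genotype, with the mean of 4 libraries as a line. Circles and triangles are the 2 sets; triangles tend to be higher, most at Cdk6, where the set means are 29.8 and 41.2, and the genotypes overlap at all 10 genes.

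For the ranks of the 52 shared member regions, the Ccnd3 region was the one call in the average over both backgrounds, where 0.661% of all shared regions were called (0.552% of all shared regions as lower). None was called in the other contrasts, where the percentage over all shared regions was 0.0687% for the double knockout against TET2KO, 0.0102% for P300KO against WT, 0% for TET2KO against WT, 0.104% for the double knockout against P300KO and 0% for the interaction. At an unadjusted limma p under 0.05 the average had 6 of 52 member regions (11.5%), beside 12.8% of all shared regions. P300KO against WT had 9 (17.3%) beside 13.2%, and the main contrast had 1 (1.92%) beside 5.57%. There were 4 (7.69%) for TET2KO against WT, beside 8.75%, 4 for the double knockout against P300KO, beside 7.04%, and 4 for the interaction, beside 4.59%. The member shares lay on both sides of the background.

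In the 4 pairs of genotypes compared for presence, no member region had a peak in all 4 libraries of one genotype and none of the other. The double knockout was not compared in this way with WT, nor P300KO with TET2KO. Over all regions this held for 0.0726% in the double knockout against TET2KO, 0.0236% in P300KO against WT, 0.0213% in TET2KO against WT and 0.0959% in the double knockout against P300KO. With at least 3 of 4 against at most 1 of 4, 6 member regions (2.39%) differed in the main contrast, beside 1.71% of all regions. Of these 6, 5 had more peaks in the double knockout, and over all regions 3517 had more and 1547 fewer. The counts of member regions were 6 for P300KO against WT, 3 for TET2KO against WT and 5 for the double knockout against P300KO. The shares of all regions beside them were 1.34%, 1.2% and 1.69%. Of the regions in the main contrast, 5 were at Cdk6 and 1 was at Ccnd2, and all ranked at a mean of 29.0 or below.

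Of the G1 drivers' 182 regions, 99 were at Cdk6, which weighs on any value for that class. Of the inhibitors' 69 regions, 65.2% were over 3 kb from any protein-coding start, and of the drivers' regions 81.9%, beside 79.9% of all regions. The share present in all 16 libraries was 29.0% at the inhibitors and 17.6% at the drivers, beside 13.3% overall. With Cdk6 left out, a choice made after its values were seen, the 3 D cyclins had 58 of 83 regions (69.9%) over 3 kb from a start and 24 of 83 (28.9%) in all 16 libraries, both near the inhibitors' shares. The shared regions had a median percentile of 84.8 at the inhibitors and 84.1 at the drivers, beside 82.3. Regions with a peak per 10 kb came to 1.34 ± 0.13 (SD over 16 libraries) at the inhibitors and 1.56 ± 0.23 at the drivers, beside a median of 0.981 over all genes tested, and the drivers were higher in 15 of 16 libraries. The D cyclins alone gave 1.57 ± 0.17. With Cdk6 in the class, the order turned with 3 kb on either side (2.09 and 1.81). It also turned with the strongest 50000 peaks of each list (0.869 and 0.785). In each, the drivers were higher in 2 of 16 libraries. With Cdk6 left out, the order did not turn for the strongest 50000 peaks. The D cyclins then had genotype means of 27.5 to 28.0 such regions in 251.7 kb, and the inhibitors 21.8 to 23.5 in 260.5 kb. The 3 kb count was not made without Cdk6. Classes of 6 and 4 genes were described and not tested.

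By genotype, WT libraries had 35.8 ± 2.9 inhibitor regions and P300KO libraries 33.8 ± 5.4, and the means were 35.2 ± 3.3 for TET2KO and 34.8 ± 2.1 for the double knockout (mean ± SD, n = 4). The drivers had 70.5 ± 13.9 in WT libraries, 73.2 ± 10.2 without p300, 77.8 ± 13.1 without Tet2 and 78.5 ± 10.2 without both. These SDs hold the difference between the sets. Within the first set the driver means were 60.5, 65.5, 66.5 and 71.0 for WT, P300KO, TET2KO and the double knockout, and within the second they were 80.5, 81.0, 89.0 and 86.0. The inhibitor means within the sets ran from 30.0 to 34.0 and from 36.5 to 37.5. In ranks, the median difference for the double knockout against TET2KO was 0.94 points over the 20 shared inhibitor regions, with 15 of 20 higher. It was -0.07 over the 32 driver regions, with 14 of 32 higher, and 0.29 over all shared regions. The share of all shared regions that were higher was not counted. At an unadjusted limma p under 0.05 there were 0 of 20 inhibitor and 1 of 32 driver regions. For the average over both backgrounds, the medians were -0.28 and -0.47, beside 0.02.

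**Figure D5:**
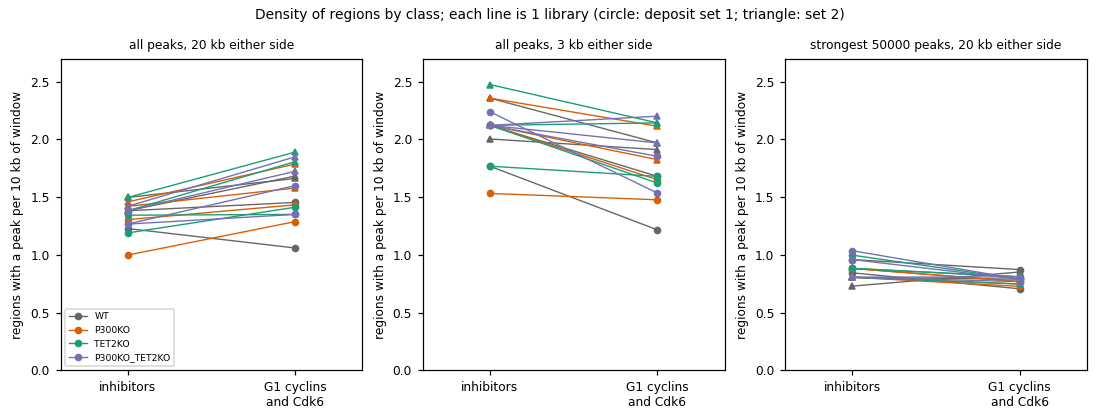
Regions with a peak per 10 kb of window (y axis, from 0) at the inhibitors and at the G1 cyclins and Cdk6, with 1 line per library colored by genotype, under 3 ways of counting. The lines mostly rise from left to right with all peaks and 20 kb (1.34 to 1.56 on average) and mostly fall with 3 kb (2.09 to 1.81) or with the strongest 50000 peaks (0.869 to 0.785).

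Of 26 other genes of the G1 to S pathway, listed for their roles (such as Cdk2, Cdk4, Rb1, the E2f genes and Trp53), 25 had enough regions to be tested. None passed in any contrast. At an unadjusted limma p under 0.05 there were 0 in the main contrast, 4 (16%) for P300KO against WT and 4 for the average, 1 (4%) each for TET2KO against WT and the interaction, and 0 for the double knockout against P300KO. The shares of all genes at that p are those given above. The median log2(count + 1) difference in the main contrast was 0.07, with 20 of 25 higher, beside 0.03 over all genes. The share of all genes that were higher was not counted.

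Short strings that resemble a factor's consensus were searched on both strands in the 200 bp around each summit. An E2f string (TTTCCCGC or TTTGGCGC or TTTCGCGC or TTTGCCGC) was in 0 of 20 shared inhibitor regions and in 2 of 32 shared driver regions, upstream of Ccnd1 and Ccnd2, beside 1.47% of all shared regions. For Runx, the letters TGTGGT or the variant TGCGGT were in 3 of 20 and 11 of 32, beside 27.2%. The Ets letters GGAAGT were in 5 inhibitor and 7 driver regions, beside 30.1% of all. For Myb, the letters CAACGG or the variant CAACTG were in 3 and 5, beside 12.8%. The Gata letters AGATAA or the variant TGATAA were in 1 and 3, beside 11.7%, and the Tal1 letters CAGATG in 2 and 3, beside 14.1%. For Ap1, TGAGTCA or the variant TGACTCA was in 2 and 4, beside 5.64%. The Cebp letters TTGCNNAA or TTACNNAA were in 2 and 3, beside 12.5%. A match is a run of letters and not a binding site. In the printed windows no matches overlapped, and the Ccnd3 region that fell holds Runx strings at positions 24 and 65 and Myb strings at positions 58 and 141, counted from 1 at the left end. The shared inhibitor regions had a median GC content of 65.2%, the driver regions 61.0% and all shared regions 55.0%.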

How the data were processed

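Per the labels and the study's methods, ATAC-seq reads of 16 HSPC libraries (4 genotypes, 4 biological replicates each, cells of 2 mice per library, 11 PCR cycles) were trimmed with cutadapt 1.9.1, aligned to mm10 with Bowtie2 2.2.6, deduplicated and Tn5-shifted, and peaks were called with MACS2 2.1.0. The deposited peak lists give, for each summit, fold enrichment (a ratio), -log10 p and -log10 q as the authors' peak caller wrote them, and the summit's offset. The study's methods state a minimum number of reads sequenced per sample. The lists hold no read counts, so the depth of each library is unknown here and no interval for counting error can be given. The weakest deposited -log10 p was about 2.00 in every list.

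Summits of 1 interval were taken as 1 peak with its strongest summit. Peaks were merged at 1 bp overlap and assigned with GENCODE's mm10 annotation to protein-coding gene bodies and 20 kb on either side. Ranks were taken within each list. limma 3.58.1 (R 4.3.3) was fitted with genotype and set, with a mean-variance trend, on log2(count + 1) for genes with a mean of at least 2 regions and on the percentile for regions in all 16 libraries. The fit was tested on simulated data with independent normal noise, which the counts and ranks here need not follow. A region was given as at a start when it overlapped one, and as distal when over 3 kb from any. For each gene the text names the regions over its starts, its strongest distal region, those past the threshold, and those singled out afterwards for an unadjusted p under 0.01. Outside this rule, 1 Cdkn1c and 1 Ccnd1 region were named for their pattern of presence and 2 Ccnd1 regions and 1 Ccnd3 region that all libraries share were named for comparison, all after their values were seen. Sequences are from the GRCm38 genome, and promoters from RefSeq on the same assembly, which matched 7 of the 10 genes. The members and lists were chosen with earlier results of these data known. P-values measure the spread between these libraries. Alternatives changed the peaks, window, scale, pseudocount (0.5), filter, covariates and libraries, and added an exact permutation test. Some marker genes are not reported here.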

Additional observations from a re-analysis of the deposited data

Results flagged for a closer look

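In groups of 4 libraries, 147 sets of values were looked at for a library far from the others, and 15 had one. For continuous values chance gives about 1 in 20, a rate that does not hold for small counts. In 8 of the 15 the value was a count that differed by 1 region from 3 equal counts, which is always flagged. Cdkn1a had 11 regions in WT replicate 3 and 11 in double knockout replicate 3, against 10 in the others. Cdkn1b had 4 in TET2KO replicate 2 and 4 in double knockout replicate 4, against 3. Cdkn2b had 5 in WT replicate 4, against 4, and Cdkn2c had 4 in TET2KO replicate 3, against 3. Ccnd1 had 8 in replicate 1 of P300KO and 8 in replicate 1 of TET2KO, against 9.

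The other 7 were rank percentiles. The Ccnd3 intronic region that passed the threshold was at 81.2 in WT replicate 1, where the group median was 90.2. Leaving this library out gave a difference of -12.8 points and an adjusted limma p of 0.00475. The Cdkn1a region 11904 bp upstream was at 75.8 in TET2KO replicate 2 (group median 84.0). The strongest distal region of Cdkn2a was at 31.5 in double knockout replicate 2 (52.1). The Ccnd1 start was at 62.6 in TET2KO replicate 2 (73.3) and at 63.2 in double knockout replicate 2 (70.4). In P300KO replicate 2 the Ccnd2 start was at 92.6 (87.5) and the first Cdk6 start region at 71.0 (75.7). These 7 values came from libraries of the set with the shorter lists, and what sets them apart was not tested.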

How the results depend on the processing

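The count of regions called none of the 10 genes under any limma alternative run, leave-one-out and the replicate block included; the exact permutation tests of 4 against 4 libraries could hardly pass (smallest p 0.0286, or 0.0556 within sets, before adjustment) and say nothing on this. For ranks, 1 member region was called in the average over both backgrounds. This became 5 with normal scores, 2 with a -log10 q of at least 2 and 2 without the variance trend. It became 6 in deposit set 2 alone, and 0 without the set term or in deposit set 1 alone. Each set alone has 8 libraries. Leaving out 1 library gave 1 to 2. P300KO against WT went from 0 to 3 with normal scores and to 3 in set 2 alone. The main contrast went from 0 to 1 in set 2 alone. The cause of these changes was not tested. At 50% coverage the Ccnd3 region was not in every library and had no value. The replicate block gave 1 call in the average, the Ccnd3 region (adjusted p = 0.0149 in limma), and changed no other call. The numbers pair no samples: same-numbered libraries of different genotypes had correlated deviations (median r = 0.377 for ranks), as had different numbers of the same set (0.38), and with set means removed the median was -0.009. Over all shared regions, the calls in the average ran from 0 to 2584 (260 as fitted, 148 with the block), in the main contrast from 0 to 557 (27) and in P300KO against WT from 0 to 598 (4), highest in set 2 alone.

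For presence, the looser rule gave 6 regions in the main contrast, 6 for P300KO against WT, 5 for the double knockout against P300KO and 3 where TET2KO was set against WT, in place of 0. Leaving out 1 library gave 0 to 2 for P300KO against WT (2 without P300KO replicate 2), 0 to 1 for TET2KO against WT and 0 to 1 for the double knockout against P300KO. Regions per 10 kb were 2.09 and 1.81 at the inhibitors and the drivers with 3 kb on either side. With the strongest 50000 peaks they were 0.869 and 0.785. Leaving Cdk6 out of the drivers, an alternative chosen after seeing the data, gave 1.57 with all peaks and 20 kb. With the strongest 50000 peaks, the D cyclins alone stayed above the inhibitors. Their genotype means were 27.5 to 28.0 regions in 251.7 kb, against 21.8 to 23.5 in 260.5 kb. In the main contrast, signs turned at Cdkn1a alone among the regions singled out: the region 11904 bp upstream gave -3.07 by fold enrichment and -0.44 in set 1, the start region 0.42 in set 1, and the region inside the gene -2.26 by fold enrichment. Peak lists hold no read depth, so a region without a peak may be one below the caller's limit.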
